A study of Mus musculus with 6 samples.

Results

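Macrophages of leukemic mice that had received iron dextran (MA9/FE) were compared with macrophages of leukemic mice that had received PBS (MA9), from 1 RNA-seq library each. The members are the 11028 protein-coding genes whose FPKM reached 1 in either library, out of 54532 genes in the files, of which 21995 are protein-coding. FPKM is the number of fragments scaled to exon length and library size, a level per length. All mice were C57BL/6 and were 6 to 8 weeks old. The MA9 and MA9/FE mice carried transplanted GFP+ leukemia driven by the fusion gene MLL-AF9, made by retroviral transduction of c-kit+ BM cells. Iron was given intraperitoneally as 0.2 mL of iron dextran at 25 mg/mL every other day, 6 times, starting 1 week after transplantation. Macrophages of mice without leukemia, with iron dextran (WT/FE) and with PBS (WT), and sorted leukemia cells of both leukemic groups were sequenced as well, again 1 library each, and stand beside the MA9 pair here. The macrophages came from spleen by the labels and from BM by the study's text, and the data do not settle which holds. Whether a library was made from 1 mouse or from a pool is not given in the sources used here, so the spread between mice is unknown, and no p-value is given for the condition.

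Macrophages of the spleen and BM take up aged red blood cells, break down their heme through heme oxygenase and either store the iron in ferritin or export it through ferroportin. In the splenic red pulp this work is done by F4/80+ macrophages whose identity depends on the transcription factor SPI-C, which is induced when heme accumulates. Excess iron is known to raise ferritin protein through loss of repression of its mRNA, and heme and iron are known to raise the genes of heme breakdown and of iron export.

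The sorted cells were labelled macrophages and, in the study's methods, gated as GFP-, Gr-1lo, F4/80+, CD115int cells with low to intermediate side scatter. All 17 macrophage markers had reads in both libraries, but B cell and antigen presentation transcripts were far more abundant. Adgre1, which encodes F4/80, was at 32.2 FPKM in the MA9 library and 52.4 in the MA9/FE library, and Csf1r, the receptor CD115, at 63.9 and 98.1. Cd79a, a chain of the B cell receptor, was at 415 and 802 FPKM in the same libraries. Genes of immunoglobulin and T cell receptor segments, which are not counted as protein-coding here, took 5.36% of the reads in MA9 and 6.81% in MA9/FE. The 17 macrophage markers took 0.127% and 0.201%, no more than in the leukemia cells (0.207% and 0.259%), which are myeloid too. The 14 red pulp macrophage genes went the other way, with 0.115% and 0.274% beside 0.0192% and 0.0175% in the leukemia cells. By the B cell and immunoglobulin transcripts, the libraries hold RNA of other cells beside macrophages. In bulk RNA fewer cells of a type cannot be told apart from less RNA per cell. The recovered depth was 17001668 reads in MA9 and 16085349 in MA9/FE, the lowest of the 6 libraries, of which the highest had 19518360.

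The share of reads on 16 B cell markers was 0.552% (95% Wilson interval 0.549% to 0.556%) in MA9 and 0.826% (0.821% to 0.830%) in MA9/FE, beside 0.893% in WT and 0.874% in WT/FE. On 15 neutrophil granule and S100 genes it was 0.193% (0.191% to 0.196%) in MA9 and 0.0968% (0.0953% to 0.0983%) in MA9/FE. These intervals, like those on ratios below, cover counting error only. B cell transcripts were thus higher and neutrophil transcripts lower in the MA9/FE library, and both moved together with the results that follow. Their part in these results was not tested.

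**Figure D1:**
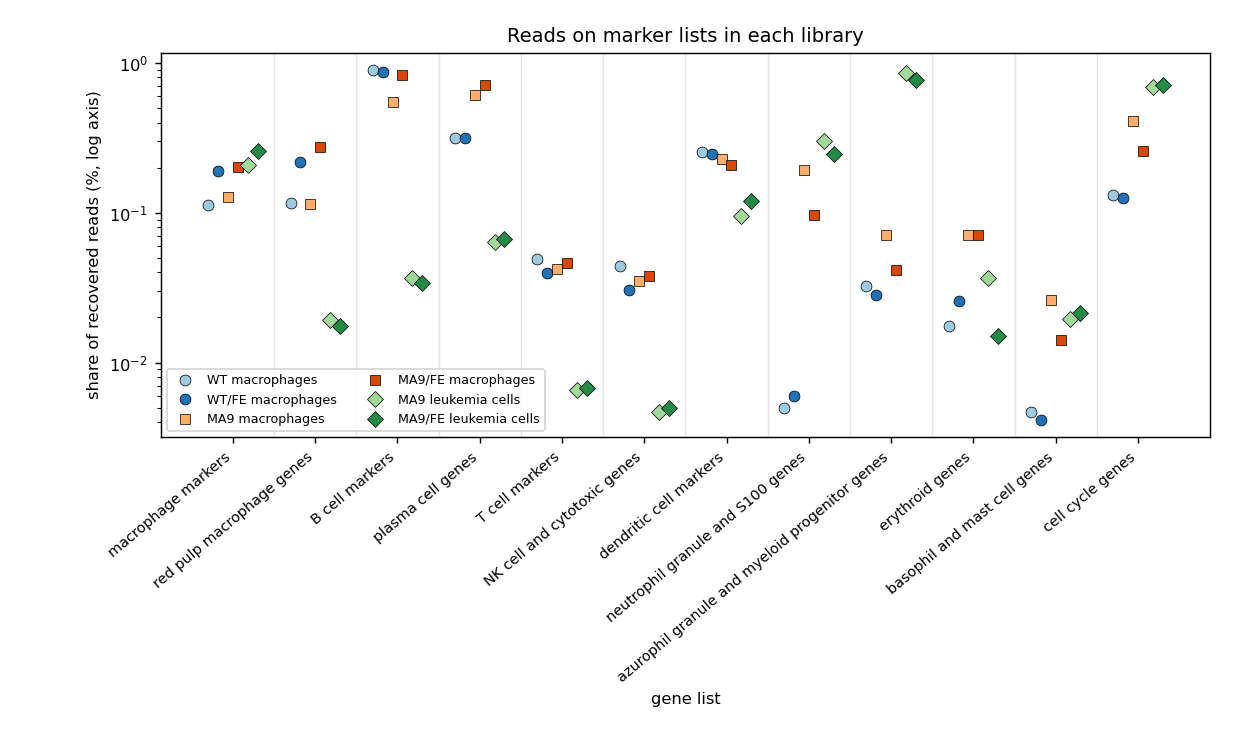
Share of recovered reads (%, log axis) on 12 gene lists in each of the 6 libraries, 1 point per library. Red pulp macrophage genes go from 0.115% in MA9 to 0.274% in MA9/FE macrophages, while neutrophil granule and S100 genes go from 0.193% to 0.0968% and stand at 0.00495% and 0.00601% in the WT pair.

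Differences are given as MA9/FE minus MA9 on the scale of log2(FPKM + 1) after TMM scaling of the pair. A difference of 1 on this scale is called 2-fold throughout, and genes are past or short of 2-fold by it. The pseudocount makes this scale understate differences of low genes. A gene whose FPKM are more than 2-fold apart can therefore count as short of 2-fold. Of the 11028 members 71 (0.644%) were at least 2-fold higher in MA9/FE and 69 (0.626%) at least 2-fold lower. The median difference was 0.03, 53.6% of the members were above 0, and 90% of the differences lay between -0.57 and 0.58 (5th and 95th percentiles). Just past the threshold were Acp5 at 1.001 and Ltf at -1.004, and just short of it Ankrd37 at 0.999 and Chil3 at -0.993. Of the 71 higher genes 30 belong to at least 1 of 43 gene lists, and of the 69 lower genes 12 do. The share of all members in a list was not computed, and the lists were chosen with earlier results known. These 2 counts therefore describe the choice of lists and are not a result about the genes. In the higher library 54 of the higher and 51 of the lower genes had at least 100 reads, beside 10244 of all 11028 members. Genes with few reads are thus more common among the called genes.

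The difference depended on the length of the gene's exons. Across members Spearman's rho with summed exon length was -0.453, beside 0.042 with GC content (11013 genes) and 0.222 with mean FPKM. The genes share their libraries, so these are descriptions and not tests. In the shortest of 10 bins, with exons up to 1677 bases, the median difference was 0.33 and 77.4% of the genes were above 0. In the longest, from 9620 bases, the median was -0.22 and 19.8% were above 0. The medians fell in each bin between. The WT pair ran the opposite way, from -0.14 to 0.07 with rho 0.283, and the leukemia pair was nearly flat, with rho 0.073. Against the mean of the 4 macrophage libraries the MA9/FE library alone had a negative rho (-0.545), while WT, WT/FE and MA9 had 0.166, 0.352 and 0.131. Deviations from a shared mean cancel out for each gene, so the MA9/FE slope in part sets the upward slopes of the others. The mean exon length of coding reads was 5137 bases in MA9/FE and 5751 in MA9. The labels name no cause for this slope, and none was tested.

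A lowess curve of the difference on log10 exon length was therefore subtracted, which brought rho to 0.018. Then 37 genes (0.336%) were at least 2-fold higher and 104 (0.943%) at least 2-fold lower, of which 34 and 60 had also passed before. The higher genes were the ones that lost most from this step: their median exon length was 1516 bases, that of the lower genes 3012 and that of all members 4341. Both values, with the length trend and without it, are given below where they differ in what they show.

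**Figure D2:**
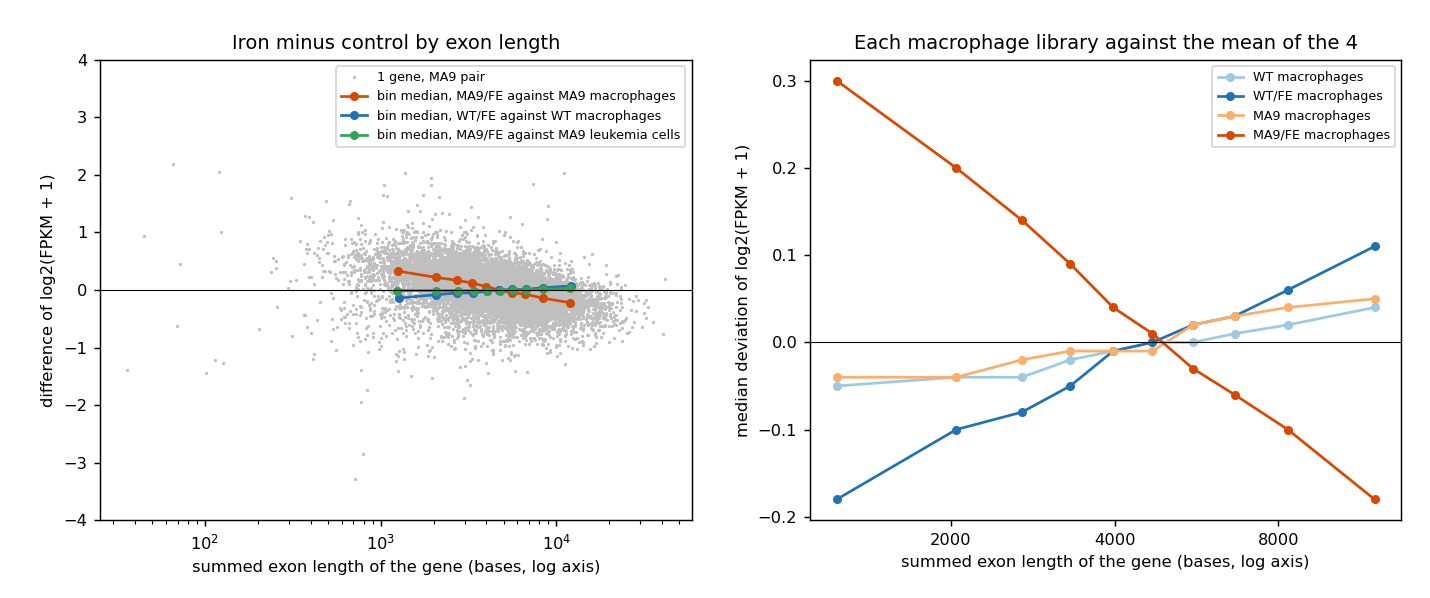
Left, difference of log2(FPKM + 1), iron minus control, against summed exon length (log axis), with 1 grey point per gene of the MA9 pair and the medians of 10 length bins as lines for each of the 3 pairs. Right, median deviation of each macrophage library from the mean of the 4 by length bin. The MA9/FE line slopes from 0.30 to -0.18 and the other 3 slope upwards. Deviations from the shared mean cancel out for each gene, so these slopes are not independent.

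Red pulp macrophage genes were the list with the highest median. The lists were chosen with earlier results of these data known, so ranks among them are descriptions. Lists can share genes: the C1q chains are also counted with complement, and Slc40a1 with iron export. All 14 red pulp genes were above 0, and 9 were at least 2-fold higher, 8 after removal of the length trend. Their median was 1.16 beside 0.03 over all members, and 1.08 after removal. Fcna encodes ficolin A, a soluble lectin that activates complement. It was at 30.9 FPKM in MA9 and 127 in MA9/FE (difference 2.03), a ratio of 4.20 with a counting interval of 3.86 to 4.56. The 3 chains of the complement starter C1q went together. C1qa went from 62.8 to 223 FPKM, C1qb from 64.7 to 201 and C1qc from 35.2 to 125, with differences of 1.83, 1.64 and 1.83. These genes lie in the 2 shortest length bins, and all 4 stayed past 2-fold after removal, at 1.75 for Fcna and between 1.33 and 1.61 for the C1q chains. In the WT and WT/FE libraries Fcna was at 33.3 and 67.2 FPKM and C1qa at 67.7 and 137, so that MA9/FE was the highest of the 4 macrophage libraries for both.

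Spic, the transcription factor of red pulp macrophages, was at 14.7 FPKM in MA9 and 31.8 in MA9/FE (difference 1.09). Vcam1, an adhesion molecule of these cells, was at 18.8 and 44.5 (1.23), and Cd5l, a secreted inhibitor of apoptosis of macrophages, at 32.5 and 81.6 (1.32). Vcam1 has exons of 8870 bases, so that the length trend worked against it, and its difference without the trend was 1.40. Clec4n, the lectin receptor dectin-2, went from 15.0 to 30.6 FPKM (1.01) and was no longer past 2-fold without the trend, at 0.72. Axl, a receptor for dying cells, had 20.9 and 40.5 FPKM (0.95), Itgad 12.1 and 20.2 (0.72), Slco2b1 2.11 and 4.5 (0.84) and Treml4 38.2 and 44.4 (0.24). Every gene of this list was higher in MA9/FE than in MA9 macrophages, and in the leukemia cells the list took 0.0192% and 0.0175% of the reads, below the 4 macrophage libraries.

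**Figure D3:**
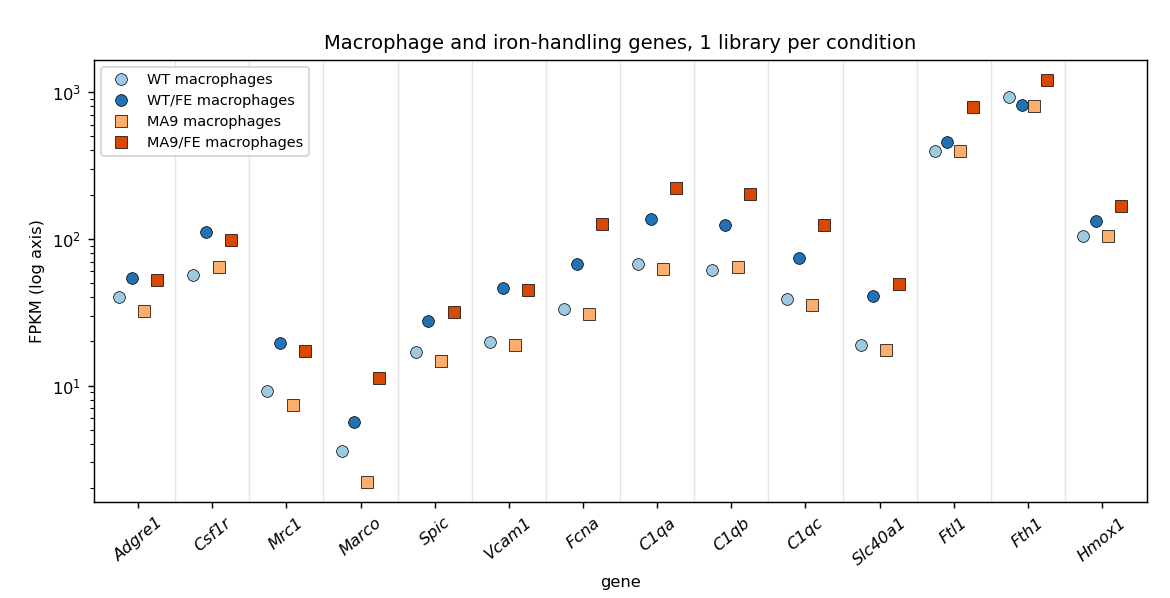
FPKM (log axis) of 14 macrophage and iron-handling genes in the 4 macrophage libraries, 1 point per library with no error bar because there are no replicates. In the MA9 pair every gene is higher with iron; in the WT pair Fth1 is the exception, at 928 and 812 FPKM.

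The 250 bases before the RefSeq start of 5 of the 14 red pulp genes and of Marco are shown because these genes were higher together. Not shown are C1qa, Slc40a1, Vcam1, Hmox1, Clec4n and Itgad, with no entry in the table used, and Axl, Treml4 and Slco2b1, which were short of 2-fold. Sequences are from RefSeq on GRCm38.p6, 5′ to 3′ in the direction of the gene. Capitals mark GAGGAA, the core bound by the myeloid factor PU.1 and its relative SPI-C, and TGACNNNGC, the core of the antioxidant response element, each on either strand.
Fcna, chr2:25627975-25628224, strand -: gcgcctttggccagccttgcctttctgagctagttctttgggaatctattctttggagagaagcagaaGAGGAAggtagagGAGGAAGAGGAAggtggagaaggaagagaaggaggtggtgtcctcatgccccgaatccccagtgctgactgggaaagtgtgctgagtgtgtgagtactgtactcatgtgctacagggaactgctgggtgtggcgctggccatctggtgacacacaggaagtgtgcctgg
C1qb, chr4:136886201-136886450, strand -: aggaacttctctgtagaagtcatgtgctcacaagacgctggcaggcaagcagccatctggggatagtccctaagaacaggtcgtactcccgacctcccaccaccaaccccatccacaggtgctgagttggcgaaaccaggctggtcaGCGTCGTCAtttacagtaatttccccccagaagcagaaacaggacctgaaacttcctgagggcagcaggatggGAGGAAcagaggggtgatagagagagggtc
C1qc, chr4:136892915-136893164, strand -: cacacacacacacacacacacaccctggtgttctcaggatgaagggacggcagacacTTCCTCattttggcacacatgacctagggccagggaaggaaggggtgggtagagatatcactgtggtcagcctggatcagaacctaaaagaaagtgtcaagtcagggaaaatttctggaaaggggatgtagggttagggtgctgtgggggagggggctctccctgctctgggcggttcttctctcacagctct
Marco, chr1:120505025-120505274, strand -: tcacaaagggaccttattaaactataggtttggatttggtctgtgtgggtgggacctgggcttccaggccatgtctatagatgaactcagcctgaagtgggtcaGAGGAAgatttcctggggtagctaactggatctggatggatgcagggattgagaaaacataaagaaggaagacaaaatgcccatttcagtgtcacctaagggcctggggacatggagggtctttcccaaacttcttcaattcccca
Cd5l, chr3:87357631-87357880, strand +: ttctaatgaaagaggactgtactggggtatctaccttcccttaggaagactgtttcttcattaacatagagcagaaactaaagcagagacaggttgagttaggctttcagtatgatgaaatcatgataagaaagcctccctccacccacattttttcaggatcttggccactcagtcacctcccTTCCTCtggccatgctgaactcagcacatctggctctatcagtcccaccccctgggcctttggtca
Spic, chr10:88683024-88683273, strand -: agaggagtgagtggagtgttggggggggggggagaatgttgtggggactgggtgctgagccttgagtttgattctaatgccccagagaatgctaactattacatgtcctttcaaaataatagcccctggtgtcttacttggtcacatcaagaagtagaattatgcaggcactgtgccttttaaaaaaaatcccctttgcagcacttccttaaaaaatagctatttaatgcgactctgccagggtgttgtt
The Fcna window holds GAGGAA 3 times, at 182 to 177, 169 to 164 and 163 to 158 bases before the start. C1qb, C1qc, Marco and Cd5l hold it once each, and C1qb also holds TGACNNNGC on the opposite strand, at 103 to 95 bases before the start. Neither set of letters is in the Spic window. Of all 32851 windows that RefSeq gave, 23.3% hold GAGGAA and 10.2% TGACNNNGC. Of the 71 higher genes 49 had an entry, with 56 windows, and 37.5% and 16.1% of these held the letters. Of the 69 lower genes 47 had an entry, with 54 windows, and 25.9% and 9.26% held them. AGATAA, the core bound by GATA factors, was in 9.99% of all windows, 12.5% of those of the higher genes and 22.2% of those of the lower genes. Over the 11159 windows of all members the 3 shares were 23.0%, 11.8% and 6.14%. The 3 motifs share no overlapping letters in the windows shown. These matches are a description and not sites of binding.

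Iron export and storage transcripts were higher in MA9/FE macrophages. Of 11 measured genes of iron storage, export and heme breakdown 9 were above 0, with a median of 0.47 (0.40 without the length trend), and 2 were at least 2-fold higher, 1 of them without the trend. Slc40a1, which encodes the iron exporter ferroportin, was at 17.6 FPKM in MA9 and 49.4 in MA9/FE (difference 1.46, ratio 2.86 with a counting interval of 2.73 to 2.99). Its exons span 9000 bases, and without the length trend its difference was 1.64. Ferritin light chain, Ftl1, went from 398 to 789 FPKM (1.01), and from 1.01 to 0.72 when the trend was removed. Ferritin heavy chain, Fth1, was at 798 and 1210 FPKM (0.62) and heme oxygenase 1, Hmox1, at 104 and 167 (0.70). Ftl1 has pseudogenes that could share its reads, so its value is less certain than that of Slc40a1. Ftl1-ps1, listed as protein-coding, was at 7.94 and 17.3 FPKM.

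The other members of this list differed by less. Hfe, a regulator of iron sensing, had a difference of 0.47, Blvra and Blvrb, the biliverdin reductases that follow heme oxygenase, 0.56 and 0.38, the heme importer Slc48a1 0.34 and Hmox2 0.24. Ncoa4, the receptor that delivers ferritin to the lysosome, was at 7.57 and 7.35 FPKM (-0.02), and the heme exporter Flvcr1 at 13.4 and 11 (-0.24). Cp, Heph and Hamp were below the minimum in both libraries.

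Iron uptake and sensing transcripts did not share one direction. Of 17 measured genes 7 were above 0, with a median of -0.06. Tfr2, a transferrin receptor of liver and erythroid cells, was at 7.45 FPKM in MA9 and 2.97 in MA9/FE (-1.07). Tfr2 was the only one whose difference passed 1 in either direction. It was at 1.06 and 1.02 FPKM in WT and WT/FE macrophages. The transferrin receptor Tfrc was at 26.3 and 17.1 FPKM (-0.57) and Steap3, the ferrireductase of the transferrin cycle, at 4.80 and 2.26 (-0.81). Cd163, the receptor for hemoglobin bound to haptoglobin, was at 3.80 and 7.97 (0.92), transferrin itself, Trf, at 1.40 and 3.01 (0.76), the mitochondrial importer Slc25a28 at 30.1 and 42.7 (0.52) and the phagosomal metal transporter Slc11a1 at 21.9 and 29.4 (0.43). Haptoglobin, Hp, was at 25.5 and 18.0 (-0.45). Differences of Pcbp1, Pcbp2, Slc25a37, Lrp1, Ireb2, Aco1, Fbxl5, Slc11a2 and Slc39a14 lay between -0.24 and 0.12. Hpx, the heme carrier hemopexin, was below the minimum.

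Oxidative stress genes had a median slightly below 0. Of 19 measured targets and regulators of NRF2 and genes of ferroptosis, the form of cell death that depends on iron, none was past 2-fold. Of these 19, 4 were above 0, with a median of -0.11 before and after removal of the length trend. Hmox1, Ftl1, Fth1 and Slc40a1 are not in this list. They are counted with iron storage and export above, where they were higher in MA9/FE. Gpx4, which reduces lipid peroxides, was at 53.4 and 73.6 FPKM (0.48), Prdx1 at 59.2 and 74.8 (0.36), Taldo1 at 146 and 179 (0.31) and Sqstm1 at 70.9 and 79.6 (0.19). Gclm and Gclc, the subunits of the enzyme that starts glutathione synthesis, were at -0.45 and -0.27, Nqo1 at -0.31, Bach1, the repressor of Hmox1, at -0.35 and Txnrd1 at -0.25. The other 10, which are Tkt, Gsr, Nfe2l2, G6pdx, Pgd, Keap1, Mafg, Acsl4, Aifm2 and Srxn1, lay between -0.21 and -0.01. Of the 9 genes of heme synthesis, Cpox was the farthest from 0, at 16.6 and 9.38 FPKM (-0.74), and the other 8 lay between -0.22 and 0.25, with a list median of 0.11, or 0.01 without the length trend.

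Macrophage markers were higher as a list as well. All 14 measured members were above 0, with a median of 0.85, or 0.83 without the length trend, and 5 were at least 2-fold higher in either case, though not the same 5. Marco, a scavenger receptor, was at 2.2 FPKM in MA9 and 11.2 in MA9/FE (1.95, with 72 and 348 reads). Cd14, the co-receptor for lipopolysaccharide, was at 4 and 14.4 (1.65), the mannose receptor Mrc1 at 7.34 and 17.1 (1.14) and Timd4, a receptor for phosphatidylserine, at 1.84 and 4.81 (1.05). Timd4 fell short of 2-fold without the length trend, at 0.86, and Maf passed it, at 1.05, against 0.89 before. Adgre1 had a difference of 0.71, Csf1r 0.64, Mertk 0.81, Fcgr1 0.68, Lyz2 0.53, Cd68 0.37 and Siglec1 0.07. Gpnmb, Vsig4 and Trem2 were under 1 FPKM in both libraries. The markers past 2-fold and those short of it both include genes of resident macrophages, and Cd14, which monocytes also use, was higher in the leukemia cells (17.8 and 24.2 FPKM) than in either MA9 library.

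Monocyte markers had a median of 0.02 over 12 measured genes (-0.02 without the length trend). None was past 2-fold as measured, and 1 was at least 2-fold lower without the trend. Plac8 was at 198 and 254 FPKM (0.38), Nr4a1 at 217 and 216 (0.02), Ms4a4c at 56.5 and 71.6 (0.36) and Chil3 at 88.9 and 43.4 (-0.99).

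Functions of macrophages that handle debris differed unevenly. Of 11 measured complement genes 5 were at least 2-fold higher, 4 after removal of the trend, with a median of 0.53 (0.56). The median depended on the low members, at 1.14 with a minimum FPKM of 5 and 0.115 with none. Beside the C1q chains these were C6, a part of the membrane attack complex, at 2.73 and 7.87 FPKM (1.27), and properdin, Cfp, at 84.0 and 167 (1.01, and 0.76 without the trend). Apoe, the apolipoprotein that macrophages use to export cholesterol, was at 150 and 453 FPKM (1.61, with 5451 and 15564 reads) and was the only one of 15 genes of lipid efflux past 2-fold, where the median was 0.21. Scd1, Nr1h2 and Scd2 were at 0.34, 0.21 and -0.22. Of 23 lysosomal genes 19 were above 0, with a median of 0.34 (0.30). Cathepsin D, Ctsd, was at 57.3 and 116 FPKM (1.02, and 0.86 without the trend), cathepsin B at 112 and 198 (0.85), Ctsz at 263 and 363 (0.49) and Lamp1 at 73.7 and 98.4 (0.44).

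Genes of efferocytosis and scavenging had a median of 0.05 with 9 of 17 above 0, and 0.31 with 13 of 17 without the length trend. Marco and Timd4 were the 2 past 2-fold. Among the most abundant, Dock2, an activator of Rac, was at -0.17, Cd36 at -0.11 and Cd300lf at 0.27. Of 12 Fc receptor and signalling genes 11 were above 0, with a median of 0.23 (0.12). Fcgrt, the neonatal Fc receptor, was at 21.3 and 43.0 FPKM (1.0, and 0.80 without the trend), and Fcer1g, Lyn and Syk were at 0.46, 0.15 and 0.08. The 19 measured genes of ARP2/3 and WASP, which drive actin at the phagocytic cup, had a median of 0.11 (0.16), and none was past 2-fold. The most abundant were Arpc2, Actr3, Arpc5 and Brk1, at 0.41, 0.39, 0.41 and 0.62. The 18 Toll-like receptors and adaptors had a median of 0.02, with Unc93b1 at 0.43, Tlr1 at 0.26, Tlr9 at -0.37 and Myd88 at 0.15.

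Markers of classical (M1) and alternative (M2) activation gave no common direction. Of 11 measured M1-associated genes none had a difference past 1 in either direction, with a median of 0.04 (-0.08 without the length trend). Interleukin 1 beta, Il1b, was at 46.7 FPKM in MA9 and 62.1 in MA9/FE (0.43). Tnf was at 32.0 and 17.1 (-0.84), Il12b at 10.2 and 4.58 (-0.99) and Il6 at 1.55 and 0.768 (-0.52), so that these 3 cytokines were lower in MA9/FE, and Tnf and Il12b passed 2-fold without the trend, at -1.10 and -1.20. Nos2 was listed at 0 in both libraries and Cxcl11 was at 0.0620 and 0.0655 FPKM. Irf5 was at 0.21, Cd86 at 0.38 and Socs3 at -0.27.

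Of 11 measured M2-associated genes Mrc1 was the only one past 2-fold higher, and the median was -0.35 (-0.42), but 0.01 with a minimum FPKM of 5 and -0.20 with none. Without the length trend 1 gene of this list was at least 2-fold lower. Il10 was at 2.87 and 3.46 FPKM (0.22, and -0.07 without the trend), Mmp9 at 4.75 and 3.46 (-0.35), Arg1 at 1.11 and 0.614 (-0.37), with a counting interval of its ratio from 0.320 to 0.965, and Csf1 at 3.13 and 1.79 (-0.55). Ccl17 was under 1 FPKM in both libraries, at 0.687 and 0.968. Chil3, Tgm2, Pdcd1lg2 and Ccl22 were at -0.99, -0.47, 0.01 and 0.13. Chil3 is also a neutrophil gene and was at 0.471 and 1.28 FPKM in the WT pair.

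Transcripts of checkpoint ligands, which restrain T cells, were within 2-fold. Cd274, which encodes PD-L1, was at 49.4 FPKM in MA9 and 37.1 in MA9/FE (-0.38), Lgals9, galectin 9, at 50.8 and 44.5 (-0.16), and Cd200 at 5.56 and 8.18 (0.51). Of 18 measured checkpoint and costimulatory genes none was past 2-fold. As measured 10 were above 0, with a median of 0.02, and without the length trend 7 were, with a median of -0.08. Sirpa, the receptor of CD47, was at 85.4 and 103 (0.29), Btla at 72.4 and 104 (0.54), Icosl at 77.6 and 68.6 (-0.15) and Cd47 at 54.1 and 54.3 (0.03).

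Transcripts of B cells and of antigen presentation were higher in MA9/FE. Of 16 B cell markers 15 were above 0, with a median of 0.60 (0.52). Cd79b was at 292 and 618 FPKM (1.10) and Fcmr, the IgM receptor, at 123 and 272 (1.16), while Cd79a had a difference of 0.97. Cd79b and Fcmr were short of 2-fold without the length trend, at 0.82 and 0.91. In the WT pair the same markers had a median of -0.01, and their levels there lay near those of MA9/FE, with Cd79b at 576 and 503 and Fcmr at 278 and 257. The MA9 library was the one with low B cell levels among the 4. MHC class II genes were also lowest in MA9. Their median was 0.73 (0.55) over 11 genes with 10 above 0, and -0.11 in the WT pair. Cd74, the invariant chain, was at 4730 FPKM in MA9, 8140 in MA9/FE, 7930 in WT and 7040 in WT/FE, and H2-Ab1 was at 1910, 3130, 3130 and 2890. H2-Eb1 and H2-Aa had differences of 0.76 and 0.61. MHC class I genes had a median of 0.21 (0.12), with B2m at 0.47, H2-K1 at 0.32, H2-D1 at 0.33 and Psme1 at 0.30.

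Other lymphoid lists differed by less. Plasma cell genes had a median of 0.09 over 12 genes and -0.06 without the length trend, with Jchain at 1360 and 1690 FPKM (0.34) and Mzb1, Xbp1 and Txndc5 at 0.45, -0.08 and -0.01. T cell markers had a median of 0.24 (0.22) over 16 genes, with Cd3g, at 1.12 and 3.33 FPKM (1.05), the only one past 2-fold, and short of it without the trend, at 0.95. Tcf7, Cd8a, Cd4 and Lck were at -0.41, 0.11, -0.20 and 0.47. NK cell genes had a median of 0.17, and -0.06 without the trend, with Gzma, Nkg7, Klrd1 and Il2rb at 0.41, 0.17, 0.37 and -0.19. Dendritic cell markers had a median of -0.15 (-0.12) over 14 genes, with Ccr7 at -0.26, Bst2 at 0.20, Itgax at -0.28 and Irf8 at -0.01.

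Neutrophil granule genes were lower in MA9/FE and were the list with the lowest median. None of the 15 was above 0, 4 were at least 2-fold lower (9 without the length trend), and the median was -0.89 (-1.09). Ngp, a granule protein, was at 372 FPKM in MA9 and 169 in MA9/FE (-1.11), the iron-binding lactoferrin, Ltf, at 82.2 and 39.8 (-1.0), Lcn2, which sequesters bacterial siderophores, at 47.8 and 22.6 (-1.02) and Cd177 at 16.4 and 5.78 (-1.34). S100a8 and S100a9, the calprotectin subunits, were at 410 and 209 (-0.95) and at 646 and 342 (-0.89). Camp had a difference of -0.88. These 7 genes were at or below 1.08 FPKM in the WT pair, with Ngp at 0.629 and 0.390, and were high in the leukemia cells, with Ngp at 418 and 320 and S100a9 at 1030 and 805.

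Azurophil granule and progenitor genes lay below 0 too, with none of 12 above 0 and a median of -0.69 (-0.77). None had a difference of -1 or lower as measured, and 4 had one without the length trend. Mpo was at 47.1 and 22.9 FPKM (-0.98), neutrophil elastase, Elane, at 56.8 and 29.4 (-0.90), Ctsg at 28.1 and 16.1 (-0.75) and Prtn3 at 26.1 and 17.7 (-0.51). In the leukemia cells Elane was at 1710 and 1270 and Mpo at 775 and 744. Targets of MLL-AF9 had a median of -0.11 (-0.05) over 7 measured genes, with Cdk6 at 9.48 and 4.62 (-0.88), Myb at 14.0 and 7.91 (-0.73), Jmjd1c at -0.36 and Mef2c at 0.00. Prss34, a basophil protease, was at 93.2 and 38.4 FPKM (-1.23), and the basophil and mast cell list had a median of -0.53 (-0.66) over 9 genes, with Mcpt8 at -0.97, Cpa3 at -0.53 and Osm at 0.05.

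Cell cycle genes were lower in MA9/FE as well. Of 32 genes 1 was above 0 and 3 were at least 2-fold lower, with a median of -0.53 (-0.56) beside -0.04 in the WT pair. Mki67, the proliferation antigen Ki-67, was at 57.1 and 24.8 FPKM (-1.15), and at 11.7 and 13.3 in the WT pair. The kinesin Kif20a was at 12.9 and 5.32 (-1.11) and the kinetochore protein Cenpf at 4.67 and 1.76 (-1.02), although Cenpf and Mki67 have exons of 15433 and 10061 bases and were at -0.73 and -0.95 without the length trend. Pcna, Rrm2, Mcm5 and Mcm6 were at -0.12, -0.65, -0.52 and -0.40. The share of reads on the list was 0.411% in MA9 and 0.259% in MA9/FE, between the WT pair and the leukemia cells.

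Erythroid genes were split. The globins were higher, with Hba-a1 at 103 and 210 FPKM (1.04), Hbb-bs at 83.4 and 181 (1.13), Hba-a2 at 5.38 and 17.3 (1.55) and Hbb-bt at 31.5 and 55.9 (0.83). Hba-a1 and Hba-a2 are nearly identical copies, so how reads were split between them is uncertain. The erythroid membrane protein Ermap was lower, at 14.6 and 5.79 (-1.18), and carbonic anhydrase 2, Car2, was at 68.4 and 47.7 (-0.49). The list as a whole had a median of -0.31 (-0.36), with 6 of 20 above 0. Without the length trend only Hba-a2 of the globins stayed past 2-fold, at 1.16. Of the 7 measured megakaryocyte and platelet genes Clec1b was at 1.57 and 4.12 (1.01), while Pf4, Itgb3 and Itga2b were at -0.41, -0.31 and -0.59. Endothelial and stromal genes were measured for 3 members, Pecam1 at 0.35, Stab2, a scavenger receptor of sinusoids, at 0.68 and Kdr at -0.71.

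Interferon genes had list medians below 0. The 21 type I interferon response genes had a median of -0.11 (-0.14) with none past 2-fold, and Bst2, Isg15, Irf7 and Stat2 were at 0.20, 0.16, 0.03 and -0.24. Of 14 interferon-inducible GTPases, which attack vacuoles of intracellular microbes, Iigp1 was at 9.54 and 2.95 FPKM (-1.40) and Tgtp1 at 4.79 and 1.67 (-1.10), with a list median of -0.34 (-0.27). Igtp, Gbp9, Gbp8 and Gbp2 were at -0.07, -0.18, 0.23 and -0.57. Chemokine ligands had a median of -0.09 over 12 genes and -0.42 without the length trend, with Ccl4 at 69.6 and 43.0 (-0.66), Ccl5 at -0.11, Ccl3 at -0.27 and Ccl6 at 0.47. None of these 12 was past 2-fold as measured, and 1 was at least 2-fold lower without the trend. Immediate early genes had a median of 0.11 (0.09), with Junb, Zfp36, Jun and Fos at 0.46, 0.41, 0.21 and 0.46, and chaperones a median of 0.01 (-0.09), with Hsp90ab1, Hspa8, Hsp90b1 and Hspa5 at -0.09, -0.12, 0.16 and 0.08. Glycolysis enzymes had a median of -0.02 (-0.19), with Ldha, Aldoa, Pkm and Pgk1 at -0.01, 0.32, -0.12 and -0.01.

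Lists of short or long genes moved with the length trend. Cytosolic ribosomal proteins, with a median exon length of 1775 bases, had a median of 0.62 with 81 of 82 above 0, and 0.37 without the trend. Rplp1, Rps3a1, Rps15 and Rplp0 were at 0.65, 0.66, 0.78 and 0.48. Subunits of the respiratory chain encoded in the nucleus had 0.31 with 78 of 88 above 0, and 0.07 without it, with Cox8a, Cox6a1, Atp5a1 and Cox7a2l at 0.19, 0.32, 0.02 and 0.77. Mitochondrially encoded proteins had 0.48 and 0.15, with mt-Co3 the only one past 2-fold, at 9.83 and 20.5 FPKM (1.01, and 0.65 without the trend). Chromatin regulators, with a median exon length of 13540 bases, had -0.40 with 0 of 27 above 0, and -0.16 with 4 above 0 without it. Chd4, Smarca4, Arid1a and Chd3 were at -0.26, -0.40, -0.59 and -0.29. The 27 measured histone genes had 0.29 and 0.01, and the 2 past 2-fold, Hist1h3i (1.19) and Hist1h2bb (1.02), were short of it without the trend, at 0.76 and 0.61. Many histone mRNAs lack the poly(A) tail. Of the 43 list medians 27 were above 0, 21 without the trend, and 6 changed sign.

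**Figure D4:**
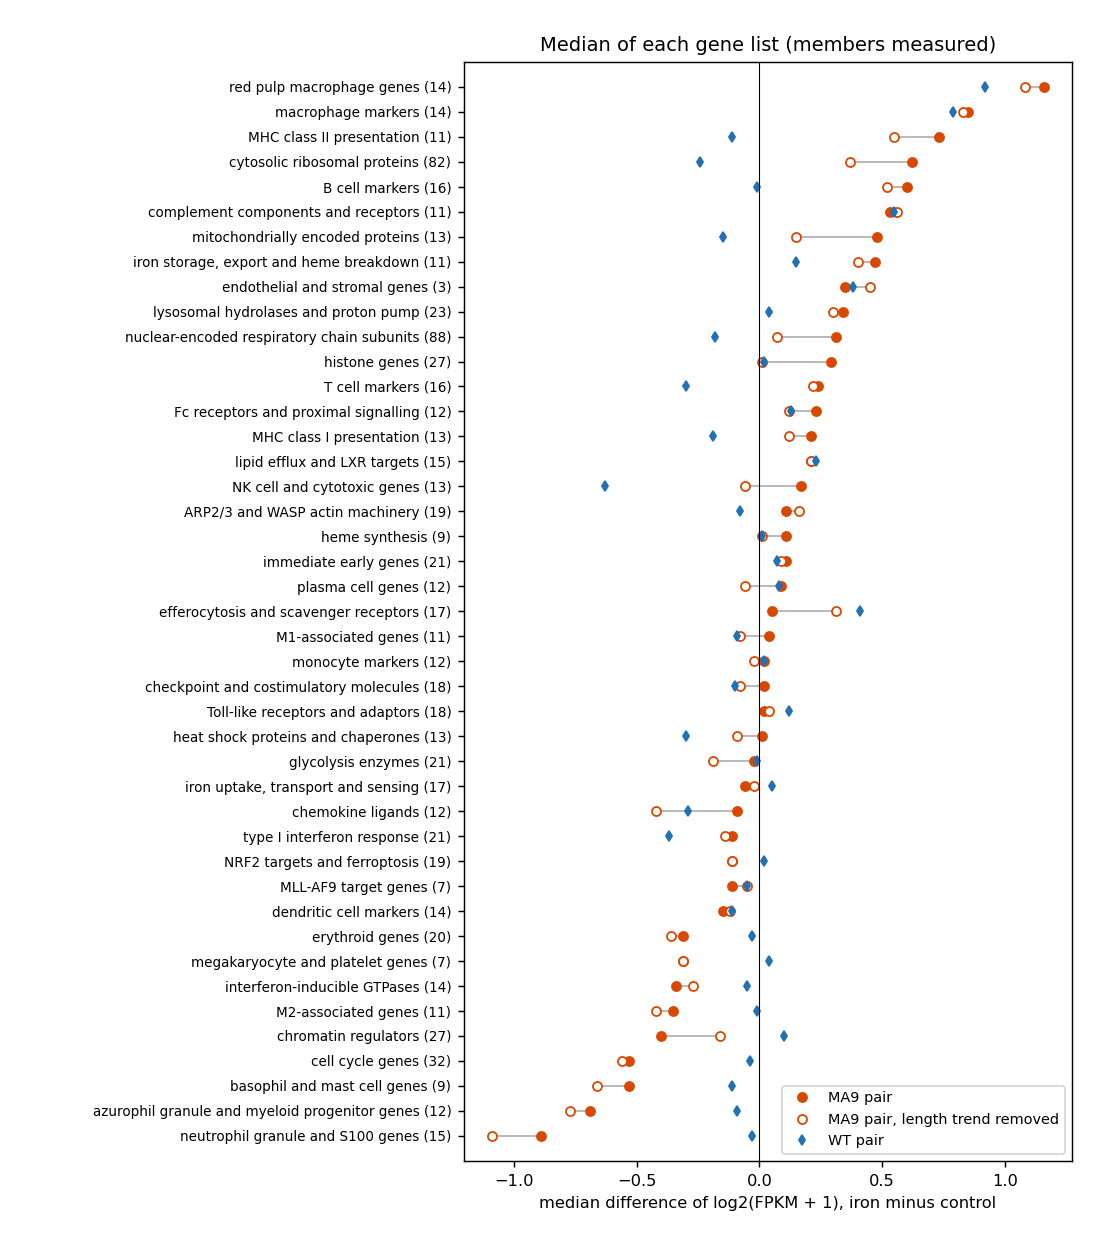
Median difference of log2(FPKM + 1), iron minus control, of 43 gene lists with the number of members measured, for the MA9 pair as measured (filled circles) and after removal of the length trend (open circles) and for the WT pair (diamonds). Red pulp macrophage genes stand at 1.16, 1.08 and 0.92, and ribosomal proteins at 0.62, 0.37 and -0.24.

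Several of the largest differences lay outside these lists. Lars2, a mitochondrial tRNA synthetase, had the largest difference upwards among genes with at least 100 reads, at 35.1 and 145 FPKM (2.04, with 6614 and 25931 reads). It was at 102 and 59.4 in WT and WT/FE macrophages. Gm23935, annotated as a miRNA and not a member, ran in the same order over the 4 libraries, at 24334 FPKM in MA9, 93020 in MA9/FE, 66326 in WT and 41354 in WT/FE. Gm24270, another such annotation, was at 604 and 2108 FPKM in the MA9 pair. The part of these transcripts in the value of Lars2 was not tested. Slc15a2, a peptide transporter, was at 0.655 and 4.92 FPKM (1.85), with 6.77 and 3.86 in the WT pair, so that MA9 was the low one of the 4. Fam213b, a prostamide synthase, was at 7.33 and 24.7 (1.65) and Tmem273 at 3.37 and 10.9 (1.47). Among others that were past 2-fold, chosen after their values were seen, Ccr3 was at 5.82 and 17.4 (1.45), Hpgd, which degrades prostaglandins, at 18.8 and 49.6 (1.38), Il18 at 12.4 and 28.9 (1.19) and Selenop, the selenium carrier, at 21.2 and 45.4 (1.09). Without the length trend Il18 and Selenop were short of 2-fold, at 0.86 and 0.96.

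Among genes with at least 100 reads and a full symbol, the 12 lowest differences include 3 genes known from neutrophils. Gm9821, left out for its symbol, was at 9.34 and 2.55 FPKM (-1.52), and BC100530 and Orm1, with 84 and 54 reads in MA9, were at -2.85 and -1.94. Stfa1, a stefin of neutrophils, was at 9.69 FPKM in MA9 and 0.0876 in MA9/FE (-3.29, with 117 and 1 reads, a ratio of MA9 to MA9/FE of 109 with a counting interval from 19.2 to 4340). Stfa1 belongs to a family of near-identical copies, so its reads could be split among them. Olfm4 was at 4.17 and 0.399 (-1.87), and Cd177 is described above. Stfa1 and Olfm4 were listed at 0 in both WT libraries and were at 127 and 44.8 FPKM in the MA9 leukemia cells. Ms4a4a was at 16.5 and 4.16 (-1.74), the phospholipase Pla2g4f at 11.2 and 2.81 (-1.65), the zinc finger factor Insm1 at 7.46 and 1.80 (-1.57), the sodium pump subunit Atp1b2 at 8.12 and 2.31 (-1.44) and adenylyl cyclase Adcy6 at 12.2 and 3.84 (-1.43). Rnf186, Vasn and Zfp871 were at 9.80 and 3.04, 11.5 and 3.95, and 14.5 and 5.30 FPKM, with differences of -1.40, -1.32 and -1.28. These last 3 and Insm1 were between 5.24 and 18.1 FPKM in the WT pair, and MA9/FE was the lowest of the 4 libraries.

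The same comparison in mice without leukemia is set beside the MA9 pair, with which it shares no library. In WT/FE against WT macrophages 28 of 10808 genes (0.259%) were at least 2-fold higher and 7 (0.0648%) at least 2-fold lower. Of 10638 genes measured in both pairs 12 were at least 2-fold higher in both, which is 18.8% of the 64 genes higher in the MA9 pair and 50% of the 24 higher in the WT pair. They included Fcna, C1qa, C1qb, Slc40a1, Cd5l, C6, Vcam1, Mrc1, Hbb-bs, Hba-a1 and Fpr1, the receptor for formyl peptides. Without the length trend 10 genes were past 2-fold in the same direction in both. As measured, none was lower in both. Slc40a1 went from 18.8 to 40.8 FPKM in the WT pair (1.08), Vcam1 from 19.9 to 46.0 (1.18) and Cd5l from 17.8 to 44.1 (1.28). The red pulp list had a median of 0.92 there, with all 14 above 0 and 6 past 2-fold, and the macrophage markers 0.79 with 14 of 14 above 0. The length trend runs the other way in that pair, and its removal left 0.96 and 0.80.

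Most of the genes higher in the MA9 pair were above 0 in the WT pair, and the lower genes were not set apart there. Of the 64 higher genes 49 were above 0 in the WT pair, with a median of 0.53, beside 47.9% above 0 and a median of -0.01 over all shared genes. Of 44 lower genes 24 were below 0, close to the share over all shared genes, with a median of -0.05. The list of iron storage, export and heme breakdown had a median of 0.15 in the WT pair, with 7 of 11 above 0. Ftl1 was at 398 and 458 FPKM (0.21) and Fth1 at 928 and 812 (-0.18), and Blvra and Hmox2 had differences of -0.05 and -0.17 there. Mertk, a receptor for dying cells, passed 2-fold in the WT pair (1.18) and not in the MA9 pair (0.81). Hmox1 had a difference of 0.36, Apoe of 0.57 and Marco of 0.56 there. Tmem254c was the 1 gene past 2-fold in opposite directions, at 0.0324 and 2.71 FPKM in the WT pair and at 1.6 and 0.196 in the MA9 pair, with 43 and 5 reads in the latter. With 1 library per condition, none of these differences between the pairs could be tested.

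**Figure D5:**
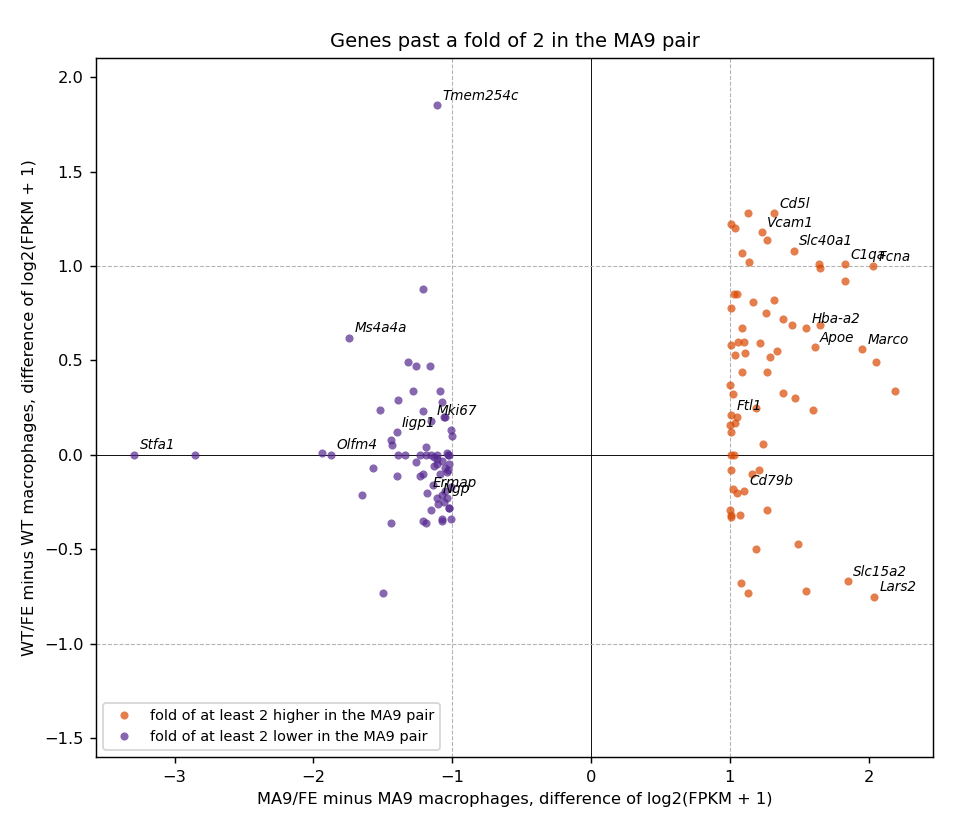
Difference in the WT pair against difference in the MA9 pair for the 140 genes past 2-fold in the MA9 pair, both as log2(FPKM + 1), iron minus control, with dashed lines at 2-fold. Higher genes sit mostly above 0 in the WT pair (median 0.53 for those measured in both), and lower genes scatter around 0 (median -0.05).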

How the data were processed

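RNA of sorted macrophages and leukemia cells was extracted with a QIAGEN RNeasy kit and sequenced on an Illumina NovaSeq, 1 library per condition. The study's text gives a service provider for the analysis. The submitters' processing notes name Bowtie2 2.2.5, RSEM and the build mm10, with no role stated for each. The authors deposited FPKM for 54532 genes, which correct for exon length and total. Of these, 54495 matched GENCODE M21 by Ensembl identifier.

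FPKM times summed exon length fell on whole multiples of 1 step, from which the reads of each library were recovered. Between 96.8% and 97.0% of values above 0 were whole within 0.05 reads. For each pair, TMM factors (trims of 0.3 and 0.05, coded by hand) came from genes with at least 10 reads, and the factor for the MA9 pair was 0.9832. Differences used a pseudocount of 1. Without replicates no test of the condition was made, and genes were called by a 2-fold difference. Ratios carry exact binomial 95% intervals on reads. A lowess curve with a span of 0.3 removed the length trend. The planned count model, which needs an assumed variation between mice, was not run on reads recovered from FPKM. An exact binomial test on the recovered reads stood in for it.

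Named genes are the 12 largest rises and falls with at least 100 reads and a full symbol (no Gm number or Rik name), list members past 2-fold or otherwise the 4 most abundant, the iron lists, and the study's PCR panels and checkpoint ligands. A few genes that this rule names are not reported here. The members and lists were chosen with earlier results of these data known. Promoter windows came from RefSeq. Alternatives were other scalings, a pseudocount of 0.1, a minimum FPKM of 5 or none, removal of the length trend, and more reads. Another left out mitochondrial, ribosomal protein and hemoglobin genes. Steps were tested on simulated data. Python 3.11.15, pandas 2.3.3, numpy 2.4.6, scipy 1.17.1, statsmodels 0.14.6 and matplotlib 3.10.9 were used.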

Additional observations from a re-analysis of the deposited data

Results flagged for a closer look

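Tmem254c was past 2-fold in opposite directions in the pairs with and without leukemia, with a difference of -1.11 in the MA9 pair and 1.85 in the WT pair. The difference between the pairs was not tested, and the MA9 value rests on 43 and 5 reads.

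Immunoglobulin and T cell receptor segments are outside the protein-coding genes that the report compares, and took 6.81% of the reads in MA9/FE macrophages, above the 5.36% in the MA9 control. The WT and WT/FE macrophages had 2.65% and 2.99%.

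Gm23935, annotated as a miRNA and so outside the comparison too, was at 93020 FPKM in MA9/FE macrophages, above 24334 in MA9, and at 66326 and 41354 in WT and WT/FE. The leukemia cells had 6599 and 5090.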

How the results depend on the processing

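With 1 library per condition the spread between mice is unknown, and genes with few reads are limited by depth as well (54 of the higher and 51 of the lower genes have at least 100 reads). The 71 higher and 69 lower genes became 59 and 74 without further scaling, a split of 44.4% higher in place of 50.7%, and stayed near this with the median of ratios (68 and 69) and with TMM without hemoglobin and immunoglobulin genes (72 and 69). A pseudocount of 0.1 gave 164 and 236 genes (41.0% higher), because low genes are no longer damped, with 27 in the same and 8 in opposite directions in both pairs. A minimum FPKM of 5 gave 51 and 39 genes, 0 opposite, and rho with exon length of -0.517. No minimum left rho at -0.349. Removal of the length trend gave 37 and 104 genes (26.2% higher), rho 0.018 by construction, and 4 opposite. Chosen after seeing the data were at least 1000 reads over the pair, with 32 and 24 genes and rho -0.551, and an exact binomial test on reads in 15805 genes. At a false discovery rate of 0.01 and a 2-fold limit the test gave 153 and 233 members. That limit cannot be the one on log2(FPKM + 1), which only 71 and 69 members pass, so the counts are not comparable. The test compares 2 libraries, not conditions. The 24 leading genes kept their call and direction in the 223 values that the alternatives gave, though some of them drop out with a minimum FPKM of 5, with at least 1000 reads or without hemoglobin genes, and the limit of 100 reads could remove none of them. Of 342 values of list medians 31 moved by more than 0.1, 16 of them with removal of the length trend. With removal of the length trend 6 list medians changed sign. Those of M2-associated genes at a minimum FPKM of 5 (0.01) and of endothelial and stromal genes with no minimum (-0.02) changed sign too. Without further scaling some medians already near 0 also crossed it, such as those of monocyte markers and of checkpoint genes. The planned count model at a preset variation was not run. No paired analysis was possible because the macrophages of each condition gave a single library.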
